A study of Elaeis guineensis with 9 samples.

Results

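The predicted messenger RNA models whose leaf level sets palms of the Deli x Yangambi cross apart from palms of both other crosses are described here, transcript by transcript. A transcript row of the deposited table was taken when its accession began with XM_ (a predicted mRNA), its mean over the 9 libraries was under 1000 TPM, and its values in the 3 Yangambi libraries did not overlap with those in the 6 other libraries. The lowest value of the higher set also had to reach 5 TPM and at least 2 times the highest value of the lower set. TPM is a length-corrected share of all transcripts that adds up to 1000000 in each library. Of 43344 predicted mRNA rows under the limit on the mean, 28 met the rule. They were 14 rows higher in Yangambi, which is 0.0323% of the rows examined, and 14 rows lower in Yangambi, again 0.0323%. The rows were selected on the TPM values of these 9 libraries, so their differences between Yangambi and the other populations are given as a description and carry no test.

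Commercial oil palms are tenera hybrids, the thin-shelled fruit form that comes from crossing a thick-shelled dura mother with a shell-less pisifera father. Deli is a dura breeding population of Southeast Asia, while La Mé and Yangambi are names of African breeding origins, in West Africa and in the Congo basin. Crosses that share a Deli side differ in the alleles that come from the other side, and in an outbred crop such alleles can differ in promoter, in splicing and in coding sequence. The accessions are computed gene models of the RefSeq collection, and a gene can have several of them, one for each predicted splice form.

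Each library was leaf RNA from frond 17 of Elaeis guineensis palms of the Tenera cultivar, which were 7 years old and stood in 1 field. The groups were Deli x Yangambi, Deli x LaMe and Deli x SP540 (Yangambi, LaMe and SP540 in what follows), and every group held 1 library each from palms of low, medium and high oil yield. No treatment was applied. The labels leave unsaid whether a library was made from 1 palm or from a pool, so the spread between libraries mixes palm, yield class and technical differences.

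Every library summed to 1000000 TPM, and sequencing depth is not kept by this unit. Between 26390 and 26783 rows reached 1 TPM in the Yangambi libraries and between 26435 and 28320 in the others, with the highest number in the medium-yield SP540 library. Of 9 genes fixed as markers of flowers and embryos, 8 stayed under 1 TPM in all libraries, among them the carpel and stamen regulator AG2 and the embryogenesis gene BBM. The MADS-box gene DEF1 lay between 2.68 and 5.69 TPM in Yangambi, against 1.08 to 6.23 TPM in the others. CAT2, a catalase that removes hydrogen peroxide, lay between 3458 and 4204 TPM in Yangambi, against 4469 to 7189 TPM in the others. These values did not overlap, as was the case for 7.16% of measured genes. For AQP, the other abundant gene looked up by name, the values did overlap. The Yangambi libraries ranged from 559 up to 717 TPM for it, and the remaining libraries from 455 up to 688 TPM. Markers of leaf itself could not be looked up by name, and the leaf label rests on the sample descriptions.

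The gene table that pairs accessions with genes gave a gene for 19 of the 28 rows, 9 of them among the rows higher in Yangambi and 10 among those lower. All 19 carry placeholder symbols beginning with LOC, and the table states no function for them, so no role is given to any. The other 9 rows are named by accession. Pairing held for 67.9% of the 28 rows, against 76.3% of the predicted mRNA rows under the limit on the mean that reached 5 TPM in 3 libraries. None of the 28 rows had the same values as another row.

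The 14 rows higher in Yangambi summed to between 342 and 429 TPM in the Yangambi libraries, against 56.4 to 87.0 TPM in the other libraries. Their means in Yangambi ran from 7.21 to 121 TPM with a median of 15.4 TPM. The 14 rows lower in Yangambi summed to between 37.6 and 39.1 TPM in the Yangambi libraries, against 217 to 286 TPM in the others. On the log2(TPM + 1) scale, the median difference of Yangambi from the other 6 libraries was 2.56 for the higher rows (range 1.57 to 3.38) and -2.35 for the lower rows (range -3.82 to -1.49). These sizes depend on the value added before taking logs. With 0.1 in place of 1 the medians were 3.32 and -3.15, and with 5 they were 1.57 and -1.53.

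**Figure D1:**
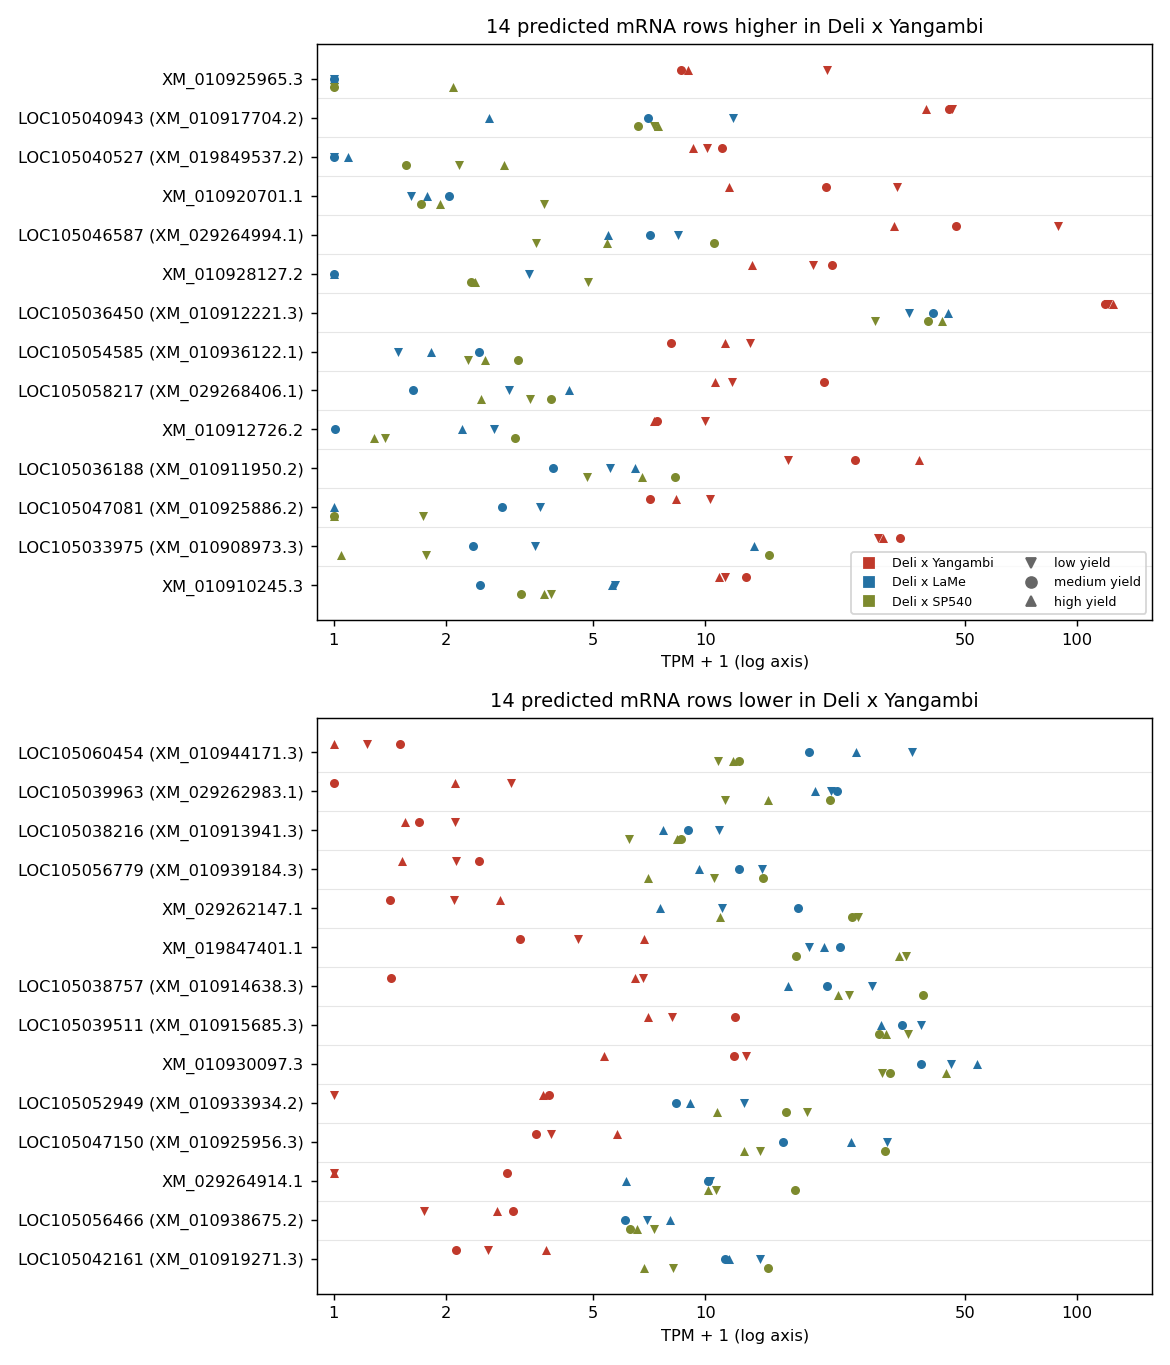
TPM + 1 on a log axis for each of the 28 rows, with 1 point per library, coloured by population and shaped by yield class. In the upper panel the 3 Yangambi points lie to the right of all 6 others, and in the lower panel to the left, which is how the rows were chosen.

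For 4 genes among the higher rows the chosen row is the only one paired with the gene, so that row and gene sum are the same. Only 61.6% of all rows were paired, and unpaired rows could not be counted for any gene. In this and the following sentences, values of a population are in the order low, medium and high yield. LOC105036450, the most abundant of the 28 rows, was at 120, 118 and 124 TPM in Yangambi, against 34.3, 40.1 and 43.9 TPM in LaMe and 27.7, 38.8 and 42.5 TPM in SP540. Its 3 Yangambi values lay within a coefficient of variation of 2.59%, the smallest of the higher rows, and their mean of 121 ± 3.13 TPM (SD, n = 3) was 3.19 times the mean of the others, 37.9 ± 6.01 TPM (SD, n = 6). LOC105040943 was at 45.1, 44.2 and 38.3 TPM in Yangambi, against 10.9, 6.01 and 1.62 TPM in LaMe and 6.28, 5.57 and 6.44 TPM in SP540. LaMe and SP540 had like means for it, 6.18 ± 4.65 and 6.10 ± 0.463 TPM (SD, n = 3 each), while the spread in LaMe was much wider. LOC105036188 was at 15.7, 24.3 and 36.6 TPM in Yangambi, against 4.55, 2.90 and 5.45 TPM in LaMe and 3.80, 7.28 and 5.75 TPM in SP540. The Yangambi values differed among themselves by more than those of LaMe or SP540 did, with the lowest in the low-yield library. LOC105054585 was at 12.2, 7.09 and 10.3 TPM in Yangambi, against 0.492, 1.45 and 0.822 TPM in LaMe and 1.30, 2.13 and 1.56 TPM in SP540.

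Another 5 genes with a higher row have several rows in the table. XM_029264994.1 of LOC105046587 was at 88.3, 46.3 and 31.2 TPM in Yangambi, against 7.44, 6.08 and 4.46 TPM in LaMe and 2.50, 9.55 and 4.43 TPM in SP540. Its Yangambi values span 55.3 ± 29.6 TPM (SD, n = 3), with the highest in the low-yield library. XM_010908973.3 of LOC105033975 was at 28.2, 32.4 and 29.2 TPM in Yangambi, against 2.48, 1.37 and 12.5 TPM in LaMe and 0.775, 13.9 and 0.0484 TPM in SP540. The high-yield LaMe and medium-yield SP540 libraries stood well above the other 4 libraries of those populations, and the row is the closest to the ratio limit among the higher rows. XM_029268406.1 of LOC105058217 was at 10.8, 19.9 and 9.65 TPM in Yangambi, against 1.96, 0.634 and 3.29 TPM in LaMe and 2.38, 2.84 and 1.49 TPM in SP540. XM_019849537.2 of LOC105040527 was at 9.11, 10.1 and 8.27 TPM in Yangambi, with LaMe at or close to 0 (highest 0.0908 TPM) and SP540 at 1.17, 0.569 and 1.87 TPM. The 3 populations did not overlap for this row. XM_010925886.2 of LOC105047081 was at 9.33, 6.10 and 7.35 TPM in Yangambi, against 2.58 and 1.84 TPM in low-yield and medium-yield LaMe, 0.743 TPM in low-yield SP540 and values at or close to 0 in the other 3 libraries.

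The 5 higher rows without a paired gene include the one that stood furthest apart. XM_010925965.3 was at 20.2, 7.58 and 7.99 TPM in Yangambi, while LaMe was listed at 0 throughout, as were low-yield and medium-yield SP540, and high-yield SP540 was at 1.09 TPM. The lowest Yangambi value was 6.93 times the highest value elsewhere, the largest such ratio among the higher rows. XM_010920701.1 was at 31.8, 20.1 and 10.6 TPM in Yangambi, against 0.615, 1.04 and 0.783 TPM in LaMe and 2.67, 0.714 and 0.926 TPM in SP540. XM_010928127.2 was at 18.5, 21.0 and 12.4 TPM in Yangambi, against 2.35 TPM in low-yield LaMe, 0 TPM as listed in the other LaMe libraries and 3.82, 1.34 and 1.40 TPM in SP540. In both LaMe and SP540 its highest value was in the low-yield library. XM_010912726.2 was at 8.97, 6.41 and 6.26 TPM in Yangambi and at most 2.08 TPM elsewhere. XM_010910245.3 was at 10.3, 11.9 and 9.87 TPM in Yangambi, against 4.72, 1.48 and 4.61 TPM in LaMe and 2.85, 2.20 and 2.68 TPM in SP540, the smallest log2 difference of the higher rows (1.57).

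Within Yangambi, the low-yield library held the highest value for 7 of the 14 higher rows, the medium-yield library for 5 and the high-yield library for 2. The coefficient of variation over the 3 Yangambi libraries had a median of 23.5% (range 2.59 to 60.2%) for these rows. For the 14 lower rows the highest Yangambi value fell in the library of low yield for 4, of medium yield for 6 and of high yield for 4.

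Among the lower rows, 5 genes have a single paired row. LOC105060454 stood furthest apart of all 28 rows. It was at 0.230 and 0.508 TPM in low-yield and medium-yield Yangambi and listed at 0 in high-yield Yangambi, against 35.1, 18.1 and 24.5 TPM in LaMe and 9.83, 11.4 and 10.9 TPM in SP540. The lowest value elsewhere was 19.3 times the highest Yangambi value, and it was the only lower row under 1 TPM in all 3 Yangambi libraries. The 3 populations did not overlap, with SP540 between Yangambi and LaMe. LOC105038216 was at 1.12, 0.697 and 0.551 TPM in Yangambi, against 9.87, 7.96 and 6.69 TPM in LaMe and 5.23, 7.63 and 7.37 TPM in SP540. LOC105039511 was at 7.12, 11.0 and 6.01 TPM in Yangambi, against 37.1, 33.0 and 28.7 TPM in LaMe and 34.1, 28.3 and 29.7 TPM in SP540. The 6 other libraries were close together for it at 31.8 ± 3.49 TPM (SD, n = 6), and the Yangambi mean of 8.05 ± 2.63 TPM (SD, n = 3) was 0.253 times as high. LOC105047150 was at 2.84, 2.50 and 4.79 TPM in Yangambi, against 29.9, 15.2 and 23.7 TPM in LaMe and 13.1, 29.5 and 11.7 TPM in SP540. LOC105056466 was at 0.746, 2.03 and 1.74 TPM in Yangambi and at 5.08 to 7.02 TPM elsewhere, and its log2 difference of -1.49 was the smallest in size of the lower rows.

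Another 5 lower rows belong to genes with several rows. XM_029262983.1 of LOC105039963 was at 2.01 TPM in low-yield, close to 0 in medium-yield and 1.12 TPM in high-yield Yangambi, against 20.8, 21.6 and 18.8 TPM in LaMe and 10.3, 20.7 and 13.8 TPM in SP540. XM_010914638.3 of LOC105038757 was at 5.80, 0.428 and 5.49 TPM in Yangambi, against 27.1, 20.2 and 15.7 TPM in LaMe and 23.4, 37.7 and 21.7 TPM in SP540. The medium-yield library was the lowest of Yangambi and the highest of SP540. XM_010939184.3 of LOC105056779 was at 1.13, 1.46 and 0.526 TPM in Yangambi, against 13.2, 11.3 and 8.65 TPM in LaMe and 9.55, 13.3 and 6.01 TPM in SP540. XM_010933934.2 of LOC105052949 was listed at 0 in low-yield Yangambi and at 2.80 and 2.67 TPM in the other Yangambi libraries, against 11.7, 7.34 and 8.10 TPM in LaMe and 17.8, 15.5 and 9.75 TPM in SP540. In each population the order of the yield classes was another one. XM_010919271.3 of LOC105042161 was at 1.60, 1.14 and 2.73 TPM in Yangambi, against 13.1, 10.3 and 10.6 TPM in LaMe and 7.20, 13.8 and 5.84 TPM in SP540, and lies closest to the ratio limit of the lower rows.

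The remaining 4 lower rows have no paired gene. XM_010930097.3, the most abundant of the lower rows, was at 11.9, 11.0 and 4.35 TPM in Yangambi, against 45.0, 37.1 and 53.0 TPM in LaMe and 28.9, 30.4 and 43.4 TPM in SP540. XM_019847401.1 was at 3.54, 2.17 and 5.82 TPM in Yangambi, against 18.1, 22.1 and 19.8 TPM in LaMe and 33.7, 16.6 and 32.3 TPM in SP540. For the first the high-yield library was the lowest of Yangambi and the highest of LaMe and of SP540, and for the second it was the highest of Yangambi. XM_029262147.1 was at 1.11, 0.419 and 1.81 TPM in Yangambi, against 10.1, 16.8 and 6.54 TPM in LaMe and 24.8, 23.9 and 9.94 TPM in SP540. XM_029264914.1 was at 1.93 TPM in medium-yield Yangambi and listed at 0 in the other Yangambi libraries, against 9.31, 9.17 and 5.12 TPM in LaMe and 9.66, 16.4 and 9.18 TPM in SP540.

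Whether a row stands for its gene was examined for the 10 genes with several rows, by adding up all rows paired with the gene in each library. For 9 of the 10 the sum no longer met the rule, and for 7 of them the Yangambi sums overlapped with the sums elsewhere. The median size of the log2 difference was 2.54 for the 10 rows and 0.49 for their gene sums, and the gene difference was smaller than the row difference in 9 of 10 genes. The 9 genes with a single paired row had a median size of 2.23, and whether unpaired rows belong to them is not known. Such sums still contain the rows that the rule chose, so the sums and the shares of the rows in them are a description too. kallisto, which the submitters name, divides reads that fit several splice forms by estimation, and how far this moved values between rows of a gene was not tested.

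**Figure D2:**
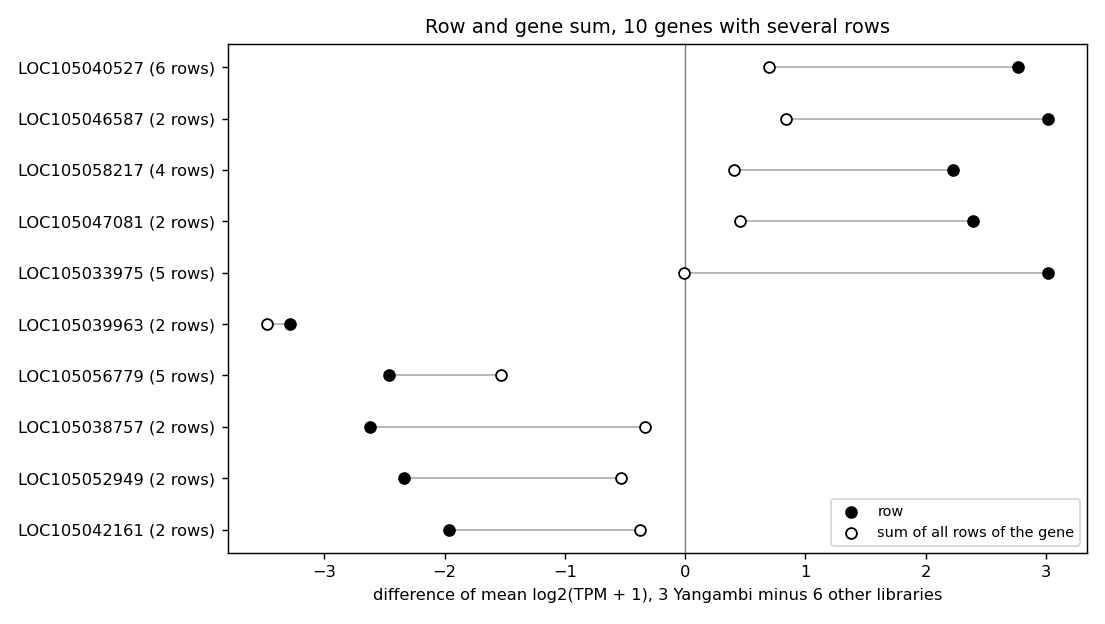
Difference of mean log2(TPM + 1) between the 3 Yangambi and the 6 other libraries, for the chosen row (filled) and for the sum of all rows of the same gene (open), in the 10 genes with several rows. LOC105039963 is the gene whose sum differs by as much as its row, and the sum of LOC105033975 lies at -0.01.

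LOC105033975 had the smallest difference of its sum among the 10 genes. Its 5 rows summed to 57.6, 64.7 and 59.5 TPM in Yangambi, against 65.3, 65.1 and 53.3 TPM in LaMe and 69.8, 56.6 and 56.6 TPM in SP540, a log2 difference of -0.01. XM_010908973.3 made up 49.0, 50.1 and 49.0% of this sum in Yangambi, against 3.79, 2.10 and 23.4% in LaMe and 1.11, 24.5 and 0.0855% in SP540. The other rows together were lower in Yangambi, at 29.4 to 32.3 TPM against 40.8 to 69.0 TPM elsewhere. Of these, XM_010908975.3 was at 13.5, 0.0051 and 12.0 TPM in Yangambi, against 31.1, 38.3 and 18.0 TPM in LaMe and 35.3, 10.1 and 34.1 TPM in SP540. XM_010908974.3 was at 6.35, 26.1 and 10.7 TPM in Yangambi, at most 1.44 TPM in LaMe, and at 21.6 TPM in medium-yield SP540 but at most 0.0836 TPM in its other libraries. Medium-yield SP540 was thus the library outside Yangambi with the highest value of both XM_010908973.3 and XM_010908974.3.

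The 2 rows of LOC105047081 summed to 10.2 to 14.4 TPM in Yangambi, against 6.07 to 12.9 TPM elsewhere, a log2 difference of 0.45 with overlap. Of this sum, XM_010925886.2 made up 43.7 to 71.9% in Yangambi, against at most 20.0% elsewhere. The 4 rows of LOC105058217 summed to 29.0 to 35.9 TPM in Yangambi and to 20.9 to 30.5 TPM elsewhere, with 30.1 to 61.3% in XM_029268406.1 against 3.03 to 15.4%. LOC105040527, with 6 rows, was higher in Yangambi as a sum too, at 19.1 to 25.6 TPM against 9.41 to 17.4 TPM, without reaching the ratio of 2. Its other 5 rows together overlapped, at 9.98 to 15.6 TPM in Yangambi and 9.32 to 16.3 TPM elsewhere. The 2 rows of LOC105046587 summed to 131 to 336 TPM in Yangambi and 53.9 to 188 TPM elsewhere, and XM_029264994.1 held 23.9 to 26.5% of it in Yangambi, against 2.15 to 17.7%.

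Among the lower rows LOC105039963 was the exception, since its other row, XM_019848569.2, was low in Yangambi as well. That row was listed at 0 in low-yield and high-yield Yangambi and was at 1.02 TPM in medium-yield Yangambi, against 4.56 to 10.8 TPM elsewhere. The gene sum was 1.02 to 2.01 TPM in Yangambi and 18.3 to 32.4 TPM elsewhere, so the shares of its rows in Yangambi rest on very low values. LOC105056779 was lower as a sum of 5 rows too, at 4.08 to 6.39 TPM in Yangambi against 8.79 to 22.8 TPM, where high-yield SP540 gave the lowest value and kept the sum from meeting the ratio. The sums of LOC105038757, LOC105052949 and LOC105042161 overlapped between Yangambi and the others. XM_010914638.3 held 1.06 to 17.2% of LOC105038757 in Yangambi, against 34.9 to 72.3% elsewhere, while the other row of that gene was at 28.0 to 40.1 TPM in Yangambi and 14.4 to 43.6 TPM elsewhere. The shares were 0 to 7.61% against 11.2 to 26.4% for LOC105052949 and 2.82 to 14.4% against 18.2 to 30.6% for LOC105042161.

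**Figure D3:**
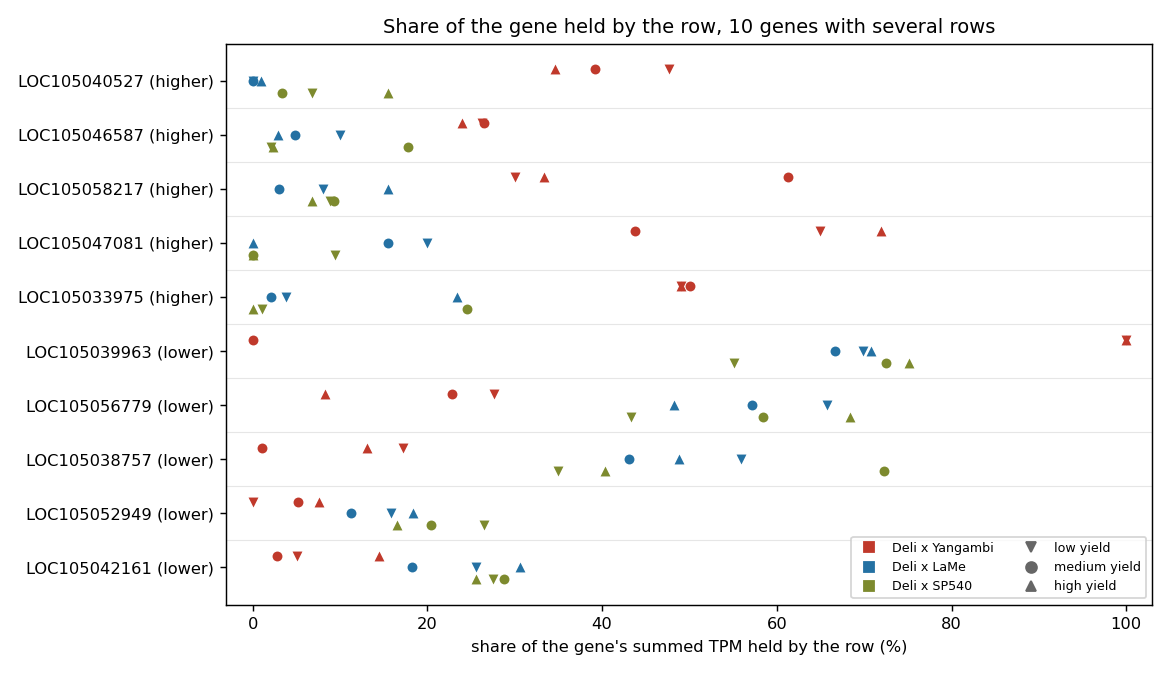
Share of the gene's summed TPM that the chosen row holds in each library, in percent, for the 10 genes with several rows, coloured by population and shaped by yield class. Yangambi points lie right of the others for the 5 higher rows and left of them for 4 of the 5 lower rows. The exception is LOC105039963, whose sum in Yangambi is at most 2.01 TPM. The rows were chosen by their own TPM, so the separation of their shares is in part built in.

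The rule did not name yield class, and the design allows a test of it. It used the same values, however, and since every population holds all 3 yield classes it limits how far a row can vary with yield, so a low number of calls among the 28 rows is in part built in. An additive model of population and yield class was fitted with limma to log2(TPM + 1) of the 30576 rows of the table that reached 1 TPM in 3 or more libraries. All 28 rows passed this filter, as the rule makes them do. For high against low yield 0 of the 28 rows passed a Benjamini-Hochberg adjusted p of 0.05, where 0% of all rows did, and 1 row had an unadjusted p under 0.05, where 4.66% of all rows did. That row was XM_010928127.2, whose difference in limma was -1.10 on the log2 scale, with an SE of 0.405 and an adjusted p of 0.987. The median difference of high from low yield was -0.12 over the 28 rows and 0.03 over all rows tested, and the median of its size was 0.24 and 0.22.

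For medium against low yield 0 of the 28 rows passed in limma and 0 had an unadjusted p under 0.05, against 0% and 3.47% of all rows. For high against medium yield 0 passed and 2 had an unadjusted p under 0.05, against 0% and 4.4% of all rows. These were XM_029264914.1 with a difference of -1.02 (SE 0.346, adjusted p = 1) and XM_010939184.3 of LOC105056779 with -0.69 (SE 0.250, adjusted p = 1). The unadjusted 95% interval of a yield difference reached 0.93 to either side at the median of the 28 rows and 0.81 at the median of all rows, and differences smaller than this lie within the error. An additive yield difference averages over the 3 populations, and 1 library per combination leaves no test of yield within Yangambi.

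LaMe and SP540 were not set against each other by the rule either, but it keeps both under the Yangambi level for the higher rows and above it for the lower rows. Of the 14 higher rows, 4 reached 1 TPM in 3 libraries only through Yangambi. The numbers called among the 28 rows are therefore a description. SP540 against LaMe called 0 of the 28 rows in limma, where 0.242% of all rows were called, and 3 rows had an unadjusted p under 0.05, against 10.1% of all rows. LOC105060454 had the smallest p, at 10.7 ± 0.780 TPM in SP540 and 25.9 ± 8.59 TPM in LaMe (SD, n = 3 each), which gave -1.16 on the log2 scale (SE 0.304, limma adjusted p = 0.271) and was lower in 3 of 3 yield classes. XM_019849537.2 of LOC105040527 was at 1.21 ± 0.653 TPM in SP540 and 0.0305 ± 0.0522 TPM in LaMe. The difference was 1.06 (SE 0.351, limma adjusted p = 0.382). This row is among the 4 that reached 1 TPM in 3 libraries only through Yangambi, and outside Yangambi it was at most 1.87 TPM. XM_010928127.2 followed with 1.01 (SE 0.405, limma adjusted p = 0.467). The mean was higher in SP540 than in LaMe for 7 of the 14 higher rows and for 5 of the 14 lower rows.

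**Figure D4:**
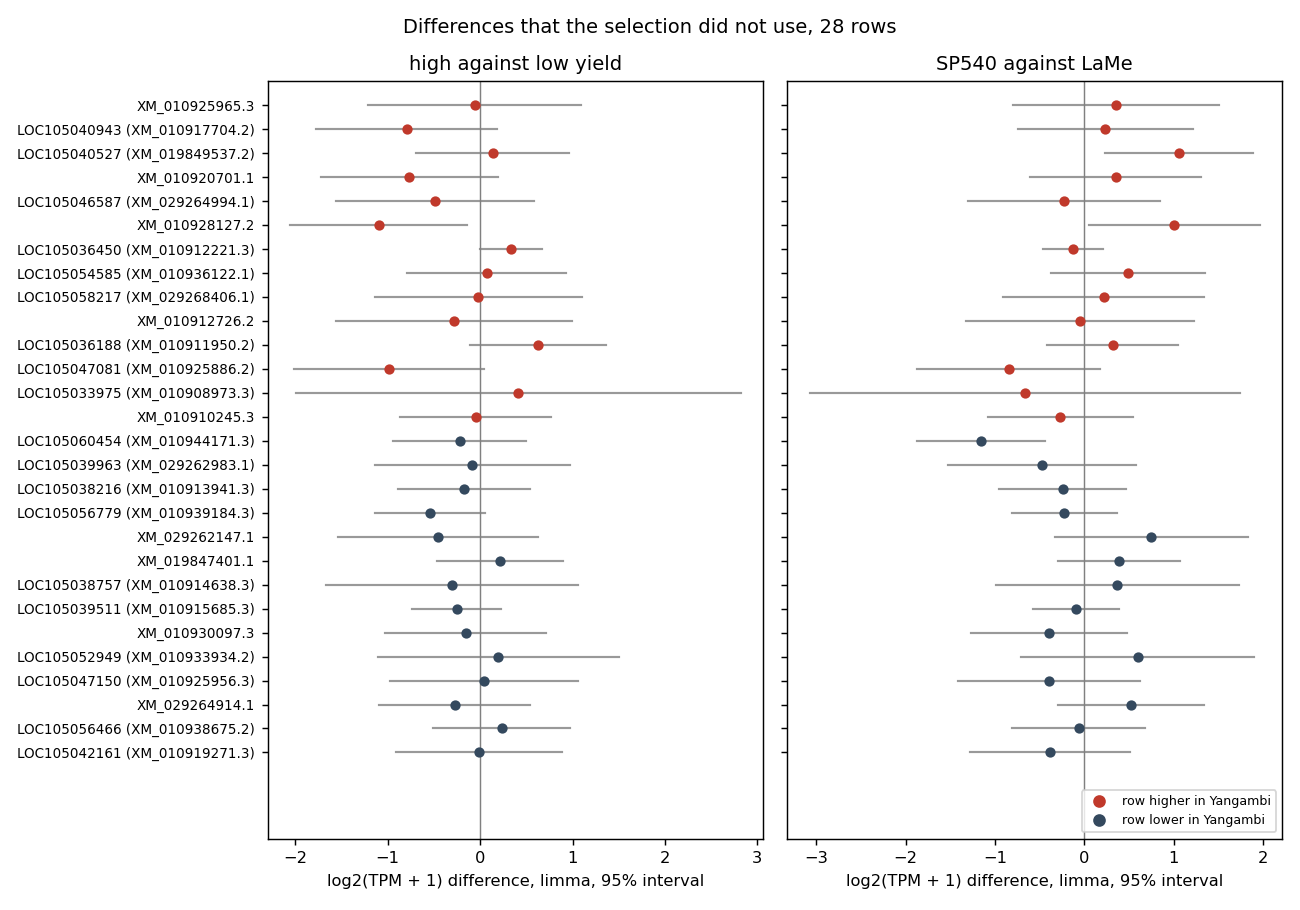
Log2(TPM + 1) differences with unadjusted 95% intervals from limma for the 28 rows, for high against low yield (left) and SP540 against LaMe (right). None of the 28 passed the adjusted threshold in either comparison, and 1 interval on the left and 3 on the right leave out 0.

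The 19 paired genes were not next to one another. No gene with a chosen row was within 2 measured genes of another in the gene table, and the nearest, LOC105036188 (higher) and LOC105052949 (lower), had 20 measured genes between them. The 2 measured genes on each side gave 76 neighbours. In 7 of these (9.21%) the Yangambi libraries and the 6 others did not overlap, against 7.16% of all 15299 measured genes. The same direction as the chosen row was found in 42 of the 76. Direction was not counted over all measured genes, so this number has nothing to be set against and no reading is given to it. The median size of the log2 difference was 0.17 for the neighbours and 0.18 for all measured genes. LOC105054585 had 3 of the 7, of which LOC105054586 was higher in Yangambi at 13.4 to 15.8 TPM against 9.30 to 11.7 TPM elsewhere. LOC105054583 was lower at 21.4 to 24.7 TPM against 29.3 to 37.8 TPM, and LOC105054587 was lower at 1.19 to 2.12 TPM against 2.27 to 4.81 TPM. Near LOC105040943, LOC105040945 was at 19.7 to 24.7 TPM in Yangambi against 10.7 to 14.5 TPM elsewhere.

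Rows at the edge of the rule differ little from those left out. Among the higher rows, XM_010908973.3 of LOC105033975 and XM_010910245.3 were just inside the ratio limit at 2.03 and 2.09, and XM_010937046.2 of LOC105055273 and XM_010927014.3 of LOC105047891 just outside at 1.97 and 1.93. Among the lower rows, XM_010919271.3 and XM_010930097.3 were just inside at 2.14 and 2.43, and XM_010940625.2 of LOC105057906 and XM_010911155.3 just outside at 1.97 and 1.91. On the limit of level, XM_010938675.2 of LOC105056466 was just inside with a lowest value of 5.08 TPM outside Yangambi. XM_010911439.3 of LOC105035751 was just outside with a lowest value of 4.99 TPM there, and was listed at 0 in all 3 Yangambi libraries.

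The same rule applied to the other populations gave 66 rows for LaMe, 32 higher (0.0738%) and 34 lower (0.0784%), and 18 rows for SP540, 14 higher (0.0323%) and 4 lower (0.00923%). No row met the rule for Yangambi and also for LaMe or SP540. For the same direction this is built in, since the rule cannot hold for 2 populations at once. The numbers of rows per population were not tested against each other. Among 8019 non-coding rows the same rule for Yangambi gave 2 higher (0.0249%) and 3 lower (0.0374%).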

How the data were processed

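Leaf RNA was measured in 9 libraries, 1 per combination of 3 populations and 3 yield classes, prepared with TruSeq mRNA-Seq reagents, per the labels. The deposited file holds TPM per RefSeq transcript, 51490 rows. Its name says counts, but the values have decimals and every library adds up to 1000000. Tools named in the submitters' processing notes are fastp, kallisto and DESeq2. The transcript set used by the authors was not given in the sources used here, nor was a genome build. TPM keeps no depth, so no counting interval is given. Estimated values of near-identical transcripts are uncertain.

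Accessions were paired without their version number with a RefSeq gene table of assembly EG11, for 31716 rows (61.6%), 1009 of them with the same version. None of the 28 rows had the same version. Names, neighbours and the grouping of rows into genes were taken from the table. All gene sums and shares of rows in them therefore rest on this pairing without versions. The annotation release behind the deposited rows is not known, so sums per gene may mix releases. A measured gene is one whose summed rows reached 1 TPM in 3 libraries.

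The 30576 rows that reached 1 TPM in 3 or more libraries were fitted in limma 3.58.1 (R 4.3.3, statmod 1.5.0) as log2(TPM + 1) with population and yield class as terms, a trended robust prior, 4 residual and 3.01 to 3.10 prior degrees of freedom, and two-sided Benjamini-Hochberg adjustment over all rows. The script was tested on simulated data. A count test planned in case the table held counts was not used. The members, rule and lists were chosen with earlier results of these data known. The naming rule covered the largest gaps, highest levels, shared or neighbouring genes and rows near a limit, and as only 28 rows met the rule all are named. Protein motifs planned for the members were not searched, since no protein sequences were used here. Alternatives were other limits, pseudocounts, filters, gene sums, scaling and leaving out single libraries.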

Additional observations from a re-analysis of the deposited data

How the results depend on the processing

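The number of rows in the set depended on its limits. With a lowest value of 1 TPM in place of 5 the rule gave 46 higher and 47 lower rows, and with 10 TPM 7 and 6. With a ratio of 1.5 it gave 32 and 46, and with 3 it gave 8 and 5. No limit on the mean left 14 and 14, scaling by median ratios gave 18 and 13, and rows summed per gene gave 10 and 10. Without single libraries the number of higher rows lay between 16 and 59 and of lower rows between 16 and 43. It was over 1.5 times the 14 rows without the low-yield (39 higher, 43 lower), medium-yield (59, 26) and high-yield (27, 23) Yangambi library, without the medium-yield SP540 library (23 higher) and without the high-yield SP540 library (33 lower). Each of these kept all 14 rows of that direction, as leaving out a library only loosens the rule. Of the differences of single rows, that of XM_010908973.3 changed sign when rows were summed per gene, to -0.0076. The pseudocount moved the size of most: that of XM_010925965.3, 3.38 with 1, was 6.16 with 0.1, and that of XM_010944171.3, -3.82 with 1, was -5.92 with 0.1 and -2.05 with 5. In all, 60 alternative values of the difference of a single row from the other populations moved by more than the spread within Yangambi. The 436 alternative values of single rows also hold limma differences of yield and of SP540 against LaMe, to which this measure was not applied. The yield and SP540 tests called 0 of the 28 rows in each of 15 alternatives, which says little for yield, where at most 1 row of the whole table was called in any of them. The lowest adjusted p of any of the 28 rows over the alternatives was 0.760 for high against low, 0.997 for medium against low and 0.951 for high against medium yield. It was 0.141 for SP540 against LaMe, with no covariate. The libraries of the populations are matched by yield class, which was a term of the main fit and so its block. With no replicate block, that is without yield class as a term, SP540 against LaMe called 0 of the 28 rows. In the 3 yield comparisons the term left out was population, and 0 of the 28 rows were called. The rows were chosen to differ by population, which then adds to their error, so those 0 calls were built in. Unknown depth limits all rows near 0.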

Other observations

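The 5 non-coding rows that met the terms of the rule for Yangambi had these values. XR_003799678.1 was higher, at 32.0 ± 2.10 TPM in Yangambi (SD, n = 3) and 5.18 ± 2.09 TPM in the other libraries (SD, n = 6). XR_003800599.1 was higher at 5.83 ± 1.18 TPM against 1.36 ± 0.727 TPM. XR_830533.2 was lower, at most 0.0173 TPM in each Yangambi library against 7.93 to 23.2 TPM elsewhere. XR_831598.2 was lower at 0.690 ± 0.330 TPM against 11.4 ± 3.60 TPM, and XR_830181.2 at 1.94 ± 1.73 TPM against 15.0 ± 6.57 TPM. None of the 5 was paired with a gene.

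Adding up rows per gene brought in 1 gene of which no row met the rule. LOC105032991, with 2 rows, was at 5.51 to 16.3 TPM in Yangambi and 0.979 to 1.76 TPM elsewhere. It was singled out once its values were known.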
